A study of Homo sapiens with 6 samples.

Results

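The IFIT and IFITM families are 7 genes here, namely IFIT1, IFIT2, IFIT3, IFIT5, IFITM1, IFITM2 and IFITM3, out of 22438 genes that could be named on the array. They were found through the RefSeq accession given for each probe, which assigned 9 of 58201 different probes to them, and IFIT2 and IFITM1 had a pair of probes each. The RNA came from AGS cells, a human gastric adenocarcinoma line, collected 48 h after transfection with a nontargeting siRNA (si-Control) or with the C1GALT1-specific siRNA si-C1GALT1-3. Each group had 3 samples, numbered 1 to 3, each on its own one-colour Agilent array, and arrays with the same number shared a slide. The labels do not say whether the samples were separate cultures, so the p-values measure the spread between these samples, which may be technical. All cells of both groups were grown in serum and carried a transfected siRNA, and the samples used here hold no untransfected cells and 1 siRNA against C1GALT1.

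IFIT proteins (interferon-induced proteins with tetratricopeptide repeats) are cytoplasmic antiviral proteins. IFIT1 binds RNA whose cap lacks 2′-O methylation and blocks its translation, and IFIT2 and IFIT3 join it in complexes. IFITM proteins (interferon-induced transmembrane proteins) sit in the plasma membrane and endosomes and hinder the fusion of enveloped viruses with the cell. Both families are classical targets of interferon signalling, which acts through the interferon-stimulated response element (ISRE) in promoters.

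Promoter sequences are shown for genes that rose and genes that did not pass the test, because both hold the core letters of this element. RefSeq promoters (GRCh38.p14) were given for 5 of the 7 genes, with IFIT2 and IFITM2 not matched. Each was read from 250 bases before to 20 bases after the start of transcription, 5′ to 3′ on the strand of the gene. The letters GAAA followed by any 2 bases and GAAA again were searched on both strands (on the other strand TTTC, any 2 bases and TTTC), and matches are in capitals. A match can overlap another.
IFIT1 promoter (chr10:89392373-89392642, plus strand): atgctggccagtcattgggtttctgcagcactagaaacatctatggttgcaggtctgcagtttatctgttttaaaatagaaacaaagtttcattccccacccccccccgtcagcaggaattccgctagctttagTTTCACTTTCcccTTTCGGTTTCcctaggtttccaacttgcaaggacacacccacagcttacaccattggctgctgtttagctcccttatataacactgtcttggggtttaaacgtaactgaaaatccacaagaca
IFIT3 promoter (chr10:89327747-89328016, plus strand): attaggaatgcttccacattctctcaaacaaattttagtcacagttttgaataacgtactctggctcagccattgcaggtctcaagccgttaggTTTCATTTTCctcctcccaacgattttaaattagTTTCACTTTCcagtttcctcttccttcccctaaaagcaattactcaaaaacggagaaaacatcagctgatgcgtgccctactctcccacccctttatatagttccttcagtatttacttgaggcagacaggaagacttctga
IFIT5 promoter (chr10:89414318-89414587, plus strand): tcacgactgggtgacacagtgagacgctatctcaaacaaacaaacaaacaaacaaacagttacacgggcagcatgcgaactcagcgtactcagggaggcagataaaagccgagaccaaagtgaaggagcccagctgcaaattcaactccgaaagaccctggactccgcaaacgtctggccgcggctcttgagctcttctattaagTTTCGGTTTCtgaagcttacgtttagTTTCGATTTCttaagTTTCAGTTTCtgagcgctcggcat
IFITM1 promoter (chr11:313790-314059, plus strand): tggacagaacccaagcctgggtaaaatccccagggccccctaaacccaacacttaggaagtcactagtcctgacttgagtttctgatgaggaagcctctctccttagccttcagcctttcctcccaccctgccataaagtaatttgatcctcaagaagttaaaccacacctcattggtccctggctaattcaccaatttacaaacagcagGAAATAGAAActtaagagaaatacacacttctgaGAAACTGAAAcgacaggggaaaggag
IFITM3 promoter (chr11:320841-321110, minus strand): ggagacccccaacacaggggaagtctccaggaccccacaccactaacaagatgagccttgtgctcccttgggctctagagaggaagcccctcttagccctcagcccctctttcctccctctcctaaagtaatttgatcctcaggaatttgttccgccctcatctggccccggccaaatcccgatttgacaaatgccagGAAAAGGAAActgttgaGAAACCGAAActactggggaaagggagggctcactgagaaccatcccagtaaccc
IFIT1, IFIT3, IFITM1 and IFITM3 each held 2 matches and IFIT5 held 3. A further start of IFIT3 (chr10:89332279-89332548) also held 2. Among all 35116 promoters of the same length, 3.30% held at least 1 match and 0.245% held 2 or more. Of the 40 genes with a promoter in a list of interferon-stimulated effectors, 60% held a match in any of their promoters. This share counts genes, while the shares over all promoters count promoters. A match of letters is a description and was not tested as a site.

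The target of the siRNA, C1GALT1 (probe A_23_P252145), had normalized log2 signals of 12.22, 13.03 and 12.62 on si-Control arrays 1, 2 and 3 and of 11.76, 11.98 and 11.13 on si-C1GALT1-3 arrays 1, 2 and 3. All si-C1GALT1-3 arrays lay below all si-Control arrays, which 10.4% of all probes did. The fitted log2 difference was -1.0 with SE 0.31 (adjusted p = 0.265 from limma). C1GALT1 reached 2-fold, but its unadjusted p of 0.019 from limma kept it outside the rule given below. The study reports loss of C1GALT1 protein in AGS cells by western blot and rates the efficiency of this siRNA as high. That is a measure of protein, while the array reads RNA. The software marked 66.2% to 72.7% of each array's gene spots as well above background. On si-Control replicate 2, spots in lines 113 to 288 and columns 59 to 115 had low signals and were masked, which removed 9712 of 60901 gene spots on that array. Of the 9 probes, only the dimmer IFIT2 probe lies there. On every slide the si-Control array lay beside the si-C1GALT1-3 array at the same 2 positions, so position on the slide and siRNA cannot be told apart. All 9 probes were well above background on every array where they were read.

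Within the IFIT family, IFIT1 and IFIT3 rose in si-C1GALT1-3 cells, IFIT5 was 1.79-fold higher and short of the 2-fold limit, and the brighter IFIT2 probe had a log2 fold change of -0.13. A gene is said to have risen or fallen where limma, fitted over all probes, gave p under 0.01 and the difference reached 2-fold. By this rule 2 of the 7 genes rose and none fell, against 2.08% of all named genes that rose and 1.33% that fell. Over all probes 2.64% passed, with 1.65% higher and 0.991% lower. The groups did not overlap for 3 of the 7 genes, all higher in si-C1GALT1-3, against 14% of all named genes and 11% of all probes. In this fit none of the 7 reached an adjusted p under 0.05 over all probes in limma, though IFIT1 did in some alternative settings given below. An unadjusted p under 0.05 was found for 3 of the 7, against 16.6% of all named genes. Over all probes, 0.0842% had an adjusted p under 0.05. The study itself names IFIT1 and IFIT3 from these arrays, so their rise is not independent of that choice.

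IFIT1, which recognizes foreign RNA caps, had normalized log2 signals of 13.46, 13.93 and 13.31 on si-Control arrays 1, 2 and 3 and of 14.90, 14.74 and 15.03 on si-C1GALT1-3 arrays 1, 2 and 3. The groups did not overlap, and the lowest si-C1GALT1-3 array was 0.81 above the highest si-Control array. The fitted log2 difference was 1.33 (SE 0.21, 95% interval 0.82 to 1.83, adjusted p = 0.102 from limma), a 2.51-fold rise. IFIT1 kept this call in all 17 alternative settings.

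IFIT3, which stabilizes IFIT1 and aids its binding of RNA, had signals of 11.30, 12.24 and 10.81 on si-Control arrays 1, 2 and 3 and of 13.45, 13.15 and 12.94 on si-C1GALT1-3 arrays 1, 2 and 3. It had the largest fitted change of the 7 genes and also a wide spread between the si-Control arrays, with an SD of 0.73 against 0.26 in si-C1GALT1-3. The groups did not overlap, with a gap of 0.69. The fitted log2 difference was 1.73 (SE 0.39, 95% interval 0.76 to 2.70, adjusted p = 0.170 from limma), a 3.32-fold rise. Its unadjusted p of 0.0050 was near the limit. Leaving out any of the arrays except si-Control replicate 2 moved p to between 0.0116 and 0.0206 and ended the call, with log2 fold changes of 1.40 (without si-Control replicate 3) to 1.85. When si-Control replicate 2 was left out it was 2.13 and the call was kept.

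IFIT5, a member that binds RNA ends bearing a triphosphate, had signals of 9.43, 9.29 and 9.11 on si-Control arrays 1, 2 and 3 and of 10.25, 9.96 and 10.14 on si-C1GALT1-3 arrays 1, 2 and 3. Replicates lay close together in both groups, with SDs of 0.16 and 0.15, and the groups did not overlap. Its fitted log2 difference was 0.84 (SE 0.16, 95% interval 0.46 to 1.23, adjusted p = 0.131 from limma). The size and not the p-value kept it outside the rule.

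IFIT2, the partner of IFIT1 and IFIT3 in RNA-binding complexes, was read by probes that gave opposite signs. The brighter probe (A_23_P24004) had signals of 12.87, 13.51 and 12.25 on si-Control arrays 1, 2 and 3 and of 12.89, 12.90 and 12.44 on si-C1GALT1-3 arrays 1, 2 and 3. The groups overlapped throughout, and the 95% interval of the log2 fold change ran from -0.99 to 0.73, so a rise of 2-fold lies outside this interval. The dimmer probe (A_24_P304071), masked on si-Control replicate 2, had signals of 11.31 and 10.60 on si-Control arrays 1 and 3 and of 11.69, 11.79 and 11.18 on the si-C1GALT1-3 arrays. It had a log2 difference of 0.60 (SE 0.32) with an interval from -0.24 to 1.44, which overlaps that of the brighter probe. With the low region kept, the dimmer probe had 1.80 with a SE of 1.05. Without si-Control replicate 2 the brighter probe had 0.18. The difference between the probes was not tested.

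**Figure D1:**
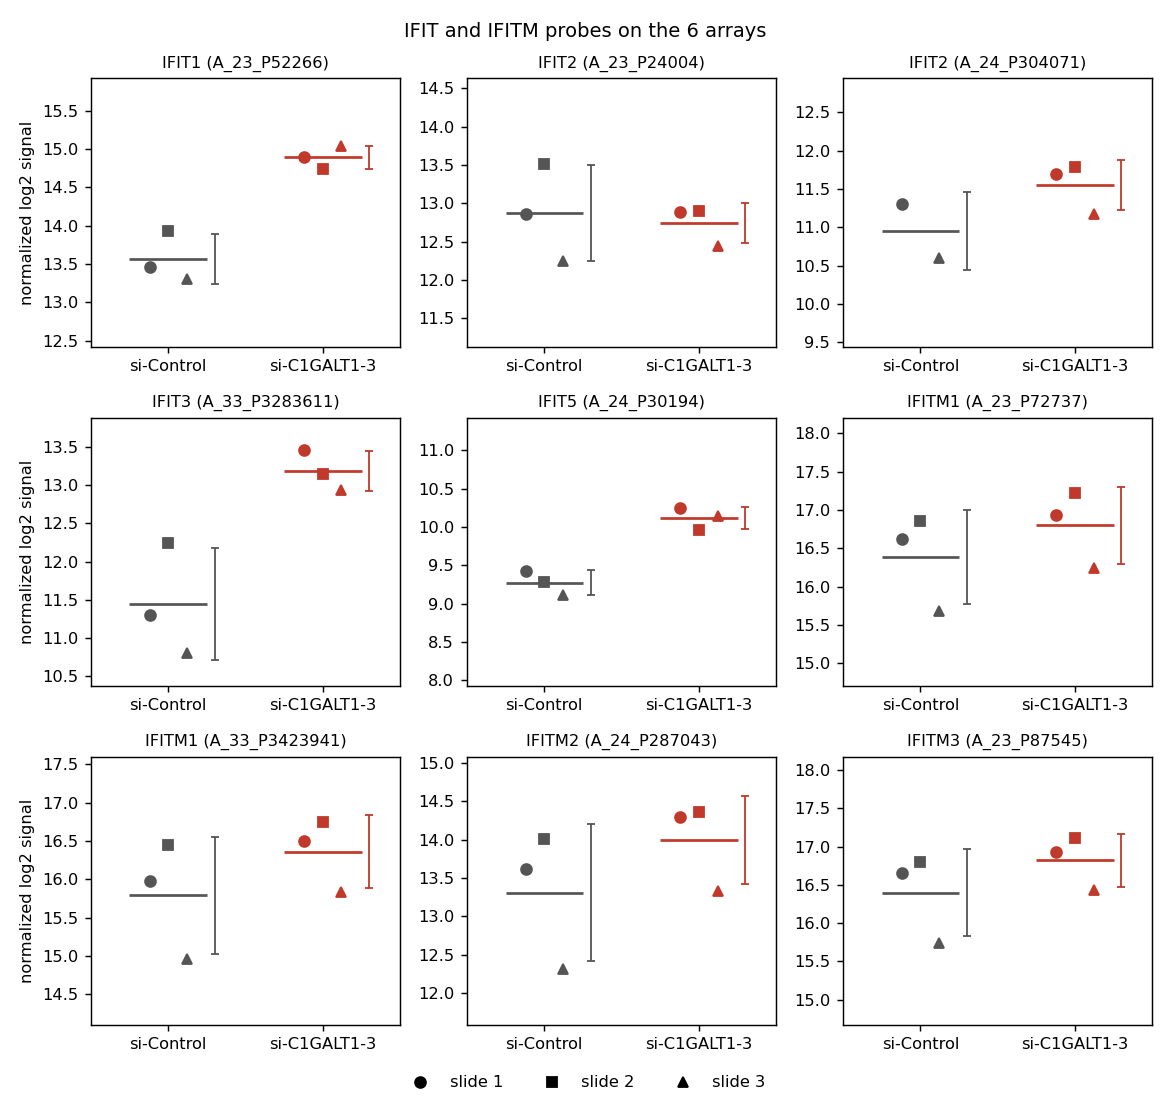
Normalized log2 signal (vertical axis, the same span in each panel) of the 9 IFIT and IFITM probes in si-Control and si-C1GALT1-3 cells. Each symbol is 1 array, its shape gives the slide, horizontal lines are group means and bars the SD. The groups are apart for IFIT1, IFIT3 and IFIT5 and overlap for IFIT2 and the IFITM probes, whose slide 3 arrays are lowest in both groups.

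None of the IFITM genes passed the rule, and in each of them the SD of the si-Control arrays exceeded the shift between groups. IFITM1, which acts mainly at the cell surface, had signals of 16.62, 16.85 and 15.69 on si-Control arrays 1, 2 and 3 and of 16.93, 17.23 and 16.24 on si-C1GALT1-3 arrays 1, 2 and 3. Its groups overlapped, since si-C1GALT1-3 replicate 3 lay below si-Control replicates 1 and 2. The log2 fold change was 0.42 (SE 0.40, 95% interval -0.58 to 1.41). Its other probe (A_33_P3423941) gave 0.57 (SE 0.45), the same sign and a similar spread.

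IFITM2, an endosomal member of the family, had signals of 13.61, 14.01 and 12.31 on si-Control arrays 1, 2 and 3 and of 14.30, 14.36 and 13.34 on si-C1GALT1-3 arrays 1, 2 and 3. It had the widest spread of the 7 genes, with SDs of 0.89 and 0.57, and a log2 fold change of 0.69 (SE 0.52, 95% interval -0.61 to 1.98). IFITM3, the endosomal factor known for restricting influenza virus, had signals of 16.65, 16.79 and 15.74 on si-Control arrays 1, 2 and 3 and of 16.92, 17.10 and 16.43 on si-C1GALT1-3 arrays 1, 2 and 3. Its log2 fold change was 0.42 (SE 0.34, 95% interval -0.43 to 1.27). In this fit, which does not use the shared slides, the intervals of all 3 IFITM genes include no change and also a 2-fold rise, and the narrower intervals with the slide as a block follow the within-slide values. These genes are close copies of each other, and how far each probe reads the other copies was not tested here.

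**Figure D2:**
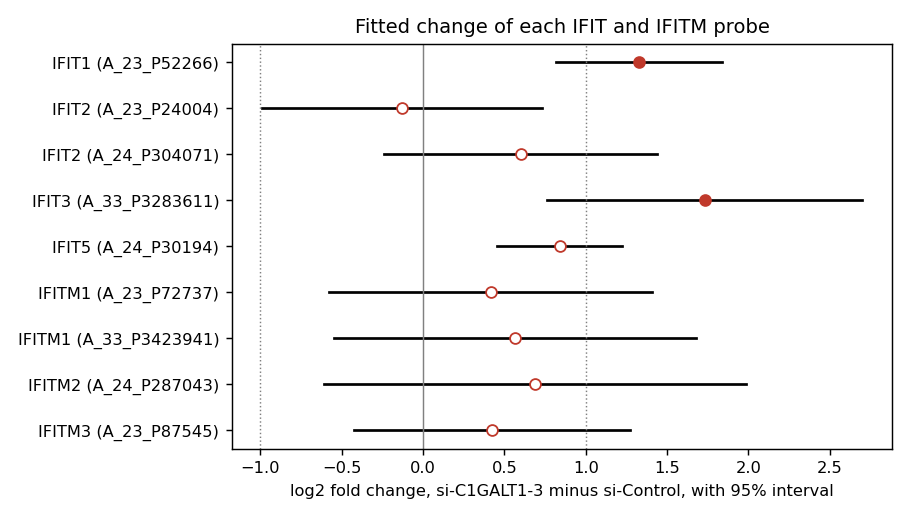
Log2 fold change of si-C1GALT1-3 minus si-Control for the 9 probes, with 95% intervals from limma. Filled points passed p under 0.01 and 2-fold and dotted lines mark 2-fold. The intervals of IFIT1, IFIT3 and IFIT5 lie above 0 and those of the other probes include 0.

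Over the 9 probes, si-Control replicate 3 was the lowest si-Control array for 9 and si-C1GALT1-3 replicate 3 the lowest of its group for 7, so that slide 3 was low in both groups. Within slides, 6 of the 7 genes were higher in si-C1GALT1-3 cells on all 3 slides, the exception being IFIT2, against 27.6% of the named genes read on all 3 slides. IFIT1 was higher by 1.44, 0.81 and 1.72 on the log2 scale on slides 1, 2 and 3. IFIT3 was higher by 2.16, 0.90 and 2.13. IFIT5 was higher by 0.82, 0.67 and 1.03, and all 3 genes had their smallest difference on slide 2.

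For the brighter IFITM1 probe the within-slide differences were 0.31, 0.38 and 0.56 on slides 1, 2 and 3. IFITM2 had 0.69, 0.35 and 1.03, and IFITM3 had 0.27, 0.31 and 0.69. With the replicate number as a block the SEs of these 3 genes fell to 0.12, 0.18 and 0.14, and their unadjusted p-values were 0.031, 0.024 and 0.051, still outside the rule. The 95% interval of IFITM1 was then 0.068 to 0.76, that of IFITM2 0.16 to 1.22 and that of IFITM3 -0.0020 to 0.85, so those of IFITM1 and IFITM2 lay above no change and those of IFITM1 and IFITM3 below a 2-fold rise. When si-Control replicate 3, the array with the lowest IFITM signals, was left out, the log2 fold changes were 0.066 for IFITM1, 0.19 for IFITM2 and 0.096 for IFITM3. When si-C1GALT1-3 replicate 3 was left out they were 0.69, 1.02 and 0.62, and when si-Control replicate 2 was left out 0.64, 1.04 and 0.62, still outside the rule. These fits do not use the shared slides, so each kept the other array of the slide without its partner. As slide 3 was low in both groups, this alone can move the estimates. IFIT2 had 0.025, -0.60 and 0.19 on slides 1, 2 and 3.

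**Figure D3:**
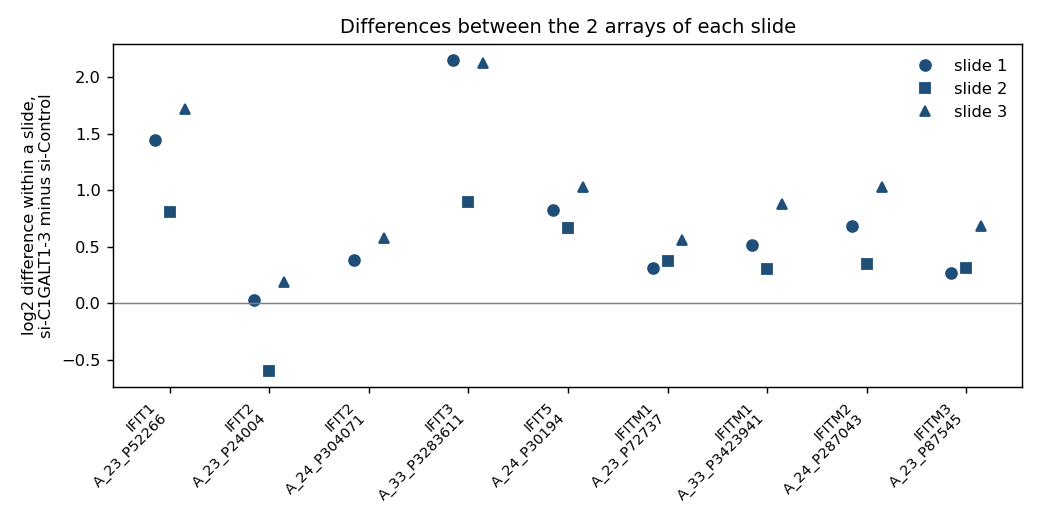
Difference in normalized log2 signal between the si-C1GALT1-3 and the si-Control array of the same slide (vertical axis) for the 9 probes. Each symbol is 1 slide, and the dimmer IFIT2 probe has no value on slide 2. Apart from the brighter IFIT2 probe on slide 2, all symbols lie above 0.

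The families lie in clusters on different chromosomes. Differences between the genes of a cluster were not tested. On chromosome 10 the order is IFIT2, IFIT3, IFIT1B, IFIT1 and IFIT5, with FAS, CH25H and LIPA before them and SLC16A12, PANK1 and KIF20B after them. IFIT1B, a relative that is not among the 7 genes, did not rise well above background on any array that read it. Of the other neighbours on this chromosome none passed the rule. PANK1, a pantothenate kinase, had the largest value of them, 1.39 on the log2 scale (SE 0.37), with an unadjusted p of 0.011. CH25H, an interferon-inducible cholesterol hydroxylase, had -0.31 (SE 0.44).

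On chromosome 11 the order is IFITM5, IFITM2, IFITM1 and IFITM3, with NLRP6 and PGGHG before IFITM5 and B4GALNT4, PKP3 and SIGIRR after IFITM3. IFITM5, a relative known from bone, had a log2 difference of -0.27 (SE 0.29). Its probe was well above background on every array, with means of 10.38 in si-Control and 10.10 in si-C1GALT1-3 cells. None of these neighbours passed the rule, and B4GALNT4, an N-acetylgalactosaminyltransferase, had 0.60 (SE 0.21).

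**Figure D4:**
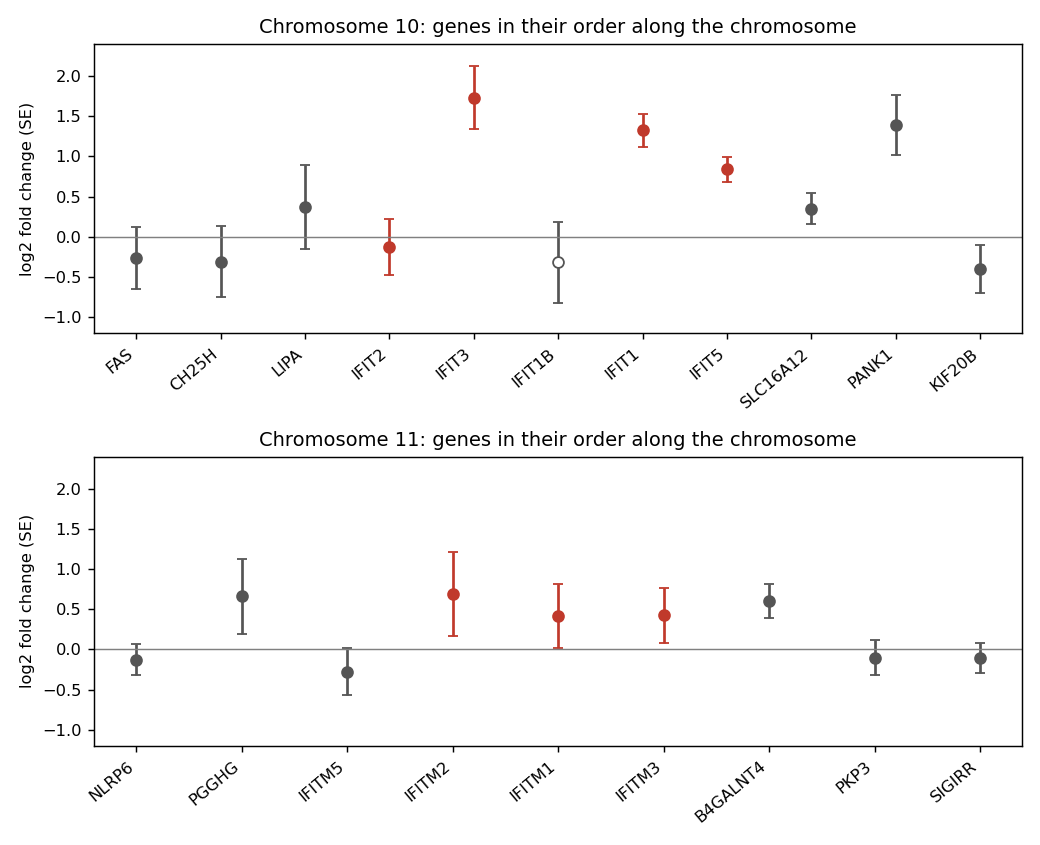
Log2 fold change of si-C1GALT1-3 minus si-Control, with SEs, for the IFIT and IFITM genes (red) and their protein-coding neighbours (grey) in their order along chromosomes 10 and 11, at equal distances. The open point is IFIT1B, with no array well above background. IFIT2 is plotted at its brighter probe (-0.13).

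Among other interferon-stimulated effectors, the wider class to which both families belong, 23 of 46 measured genes rose and none fell, or 50% against 2.08% of all named genes that rose. Their median log2 fold change was 0.99, against 0.69 for the 7 genes and 0.019 over all named genes. OAS2, which makes the 2-5A that activates RNase L, had a log2 difference of 2.63 (SE 0.23). IFI35 had 2.60 (SE 0.27), BST2, which tethers virus particles to the membrane, had 2.47 (SE 0.21), and IFI44L had 2.34 (SE 0.20). Of the 46 genes 4 had an adjusted p under 0.05 in limma, against 0.0842% of all probes. OAS2, BST2 and IFI44L were among them, each at 0.0499. With the low region kept, 15 of the 46 rose. Several of these genes are named by the study from the same arrays.

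Upstream of the families, 3 of 28 genes of interferon signalling rose, or 10.7%, and none fell. Of all named genes 2.08% rose and 1.33% fell. IFNB1, a type I interferon, had a log2 difference of 1.49 (SE 0.22). IFNE, an interferon of epithelial surfaces, had 1.34 (SE 0.20), and IFNGR1, a receptor chain for interferon gamma, had 1.11 (SE 0.16). STAT2 had 0.86 and IRF9 0.77, and neither of these transcription factors passed the rule. Of 14 genes of RNA sensing, 1 rose (7.1%), the endosomal sensor TLR3, with 1.95 (SE 0.16, adjusted p = 0.0499 from limma), and none fell. The study names IFNB1, IFNE and TLR3 from the same arrays, so their rise is not independent of that choice. It also lists STAT2 as changed, which did not pass the rule here at its brightest probe.

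Genes with which the families act were also read. In a list of IFIT substrates and partners, with cap-forming enzymes and eIF3 subunits, none of 22 genes passed the rule, and the median log2 fold change was 0.22. CMTR2, a cap methyltransferase, had the highest value, 0.67 (SE 0.13), with an unadjusted p of 0.0028. In a list of IFITM regulators and relatives, none of 16 passed, with a median of 0.14 and values from -0.61 for ZDHHC20, a palmitoyltransferase, to 0.57 for ZDHHC1. Of all named genes 2.08% rose and 1.33% fell, so lists this short can hold none that passed without differing from other genes.

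By Pearson correlation over the 6 arrays with the mean centred signal of IFIT1, IFIT2 and IFIT3, the most similar of 5701 genes were IFI27L2 (r = 0.998), TMEM128, HECTD4, PHACTR1 and YPEL3 (r = 0.993). The points share the siRNA groups and the slides, so this is a description. None of the 5 passed the rule, and their log2 fold changes ran from 0.60 for HECTD4 to 1.44 for PHACTR1.

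Markers of the cell type were as follows. Of 8 gastric epithelial markers, all were well above background in at least 1 group, and MUC1 and CDH17 rose, with log2 fold changes of 2.34 (SE 0.44) and 1.52 (SE 0.39). KRT8, KRT18, KRT19, KRT7, CLDN4 and EPCAM did not pass the rule. The summed log2 level of the list was 19.11 to 19.53 in si-Control and 18.87 to 19.43 in si-C1GALT1-3 cells. Of 8 measured leukocyte markers 4 were higher and 4 lower, none passed the rule, and the probe of PTPRC, a marker of all leukocytes, was bright in both groups (means 13.97 and 13.64). Their summed log2 level was 13.73 to 14.41 in si-Control and 13.68 to 13.82 in si-C1GALT1-3 cells. This sum is close to the PTPRC probe alone, which read 13.63 to 14.34 in si-Control and 13.56 to 13.73 in si-C1GALT1-3 cells. The next brightest marker, NKG7, had group means of 8.27 and 8.47. The study lists both PTPRC and CDH17 among genes changed on these arrays, while PTPRC did not pass here at its brightest probe. Of 9 fibroblast and endothelial markers 2 were higher and 7 lower, and none passed. The 4 outside the low region had a summed log2 level of 9.0 to 10.28 in si-Control and 10.05 to 10.71 in si-C1GALT1-3 cells. The brightest of these 4 was COL3A1, with a log2 fold change of 1.17 (SE 0.46). The sum leaves out PDGFRB, COL1A1 and VWF, which lie in the low region and had si-Control means of 13.32, 10.30 and 9.90. Their log2 fold changes were -0.81, -0.047 and -1.03. COL1A2 and LUM were well above background on no array. The part of these markers in the change of the IFIT genes was not tested.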

How the data were processed

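Gene expression was measured in 6 AGS samples, 3 with si-Control and 3 with si-C1GALT1-3. The authors deposited fluorescence intensity per spot from Agilent Feature Extraction 10.5.1.1 (per the labels and file headers), corrected for background within each array and not normalized between arrays. The table of the whole series holds background-subtracted intensity of the same spots. Quantile normalization and limma follow the study's methods.

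Here the processed signal was log2-transformed, control spots, outlier-flagged spots (100 to 424 per array) and the low region of si-Control replicate 2 were set to missing, arrays were quantile normalized, and spots of a probe averaged. The groups were compared in limma 3.58.1 under R 4.3.3 over 58195 probes, with Benjamini-Hochberg adjustment. Probes were named by RefSeq accession (GRCh38.p14), and a gene was read at its brightest probe. Precision is limited by the number of arrays.

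The genes of both families and the lists were chosen with earlier results of these data known. The text names all 7 genes, C1GALT1, up to 4 genes with the largest change among those that passed in each list, and the 5 genes most like the IFIT profile, among probes above background on all arrays with a range of at least 1. Neighbouring genes, CMTR2, ZDHHC20, ZDHHC1, STAT2, IRF9 and the markers were named after their values were seen.

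Same-numbered arrays share a slide by the scanner files, and the correlation of their deviations from the group means was 0.198, 0.215 and 0.329, so they were taken as pairs and fitted with a replicate block as an alternative. Other alternatives were no mask, other normalizations and background corrections, the series table, filters, priors, a probe-by-probe t-test without moderation, the median over probes, and leaving out each array. The dimmer IFIT2 probe was added after seeing the data. Some genes of the interferon signalling list are not reported here.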

Additional observations from a re-analysis of the deposited data

How the results depend on the processing

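IFIT1 kept its direction and call in all 17 alternatives, with log2 fold changes from 1.20 to 1.5. IFIT5 and the 3 IFITM genes kept their direction and stayed outside the rule in all 17, IFIT5 from 0.69 to 0.97, IFITM1 from 0.066 to 0.69, IFITM2 from 0.19 to 1.04 and IFITM3 from 0.096 to 0.62. The ends of the IFITM ranges came from leaving out 1 array in fits that do not pair the slides. IFIT3 kept its direction in all 17 and lost the call in 8. The number of the 7 genes that passed was 2, and 1 with no mask, with the series value table or with the unmoderated t-test, each through IFIT3, and 1 to 2 with each array left out. With the replicate as a block, which pairs the arrays of a slide, it was 2, and 20 of the interferon-stimulated effectors and 1604 probes passed, so the block changed no call of the 7 genes. With each array left out IFIT2 ran from -0.44 to 0.18, and it changed sign without si-Control replicate 2 (0.18), without si-C1GALT1-3 replicate 3 (0.020), with the median over its probes (0.24) and at the dimmer probe with the region masked (0.60) or kept (1.80). Of interferon-stimulated effectors, 23 passed, and 15 with no mask. Over all probes 1538 passed, 62.5% of them higher, with 915 under normexp on the median spot signal, which took the place of the mean signal, and 896 with the unmoderated t-test. With each array left out, 1126 to 1781 passed. The share higher was 40.2% with no mask and 72.6% with no normalization between arrays. The 75th percentile scaling moved the median of all probes to -0.11, where IFIT1 had 1.20 and IFIT3 1.70. Between 0 and 545 probes had an adjusted p under 0.05 over the settings, with 545 when dim probes were left out and 429 under normexp. IFIT1 was among them in both, with unadjusted p of 0.00038 and 7.9e-05 from limma, and the other genes of the 7 were not. The smallest adjusted p of the reported fit was 0.0499. The causes were not tested.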
